A study of Canis lupus familiaris with 33 samples.

Results

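Cholesterol synthesis was examined through 7 genes of the canine invasive urothelial carcinoma (iUC) transcriptome: HMGCS1 (ENSCAFG00000018572), IDI1 (ENSCAFG00000030810), FDPS (ENSCAFG00000030749), FDFT1 (ENSCAFG00000007948), DHCR7 (ENSCAFG00000010424), INSIG1 (ENSCAFG00000005081) and SREBF2 (ENSCAFG00000001013). They were named as a set, with earlier results of these data known. They are 7 of the 25096 genes of the TMM-normalized table, where 5 were found by gene symbol and 2, HMGCS1 and IDI1, by Entrez ID. All 7 lay above any shared lowest value in each of the 33 samples, so all 7 were tested.

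RNA was sequenced in 1 batch from 4 samples of normal canine bladder mucosa, stripped by fine dissection from dogs euthanized for conditions unrelated to the bladder, and from 29 high-grade iUC biopsies of treatment-naive dogs taken by cystoscopy. Age, sex and breed were not fixed for the tumors. Neither these nor any earlier treatment is stated for the dogs that gave the normals. Each deposited value is a log2 normalized expression value from which the median of its gene across the 33 samples was subtracted, so a value compares samples within a gene and does not give the abundance of the gene. Read depth is not known from these values.

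The normal samples are labelled as urothelial cells. The study's methods state a very high epithelial cellularity for all tumors and give no such measure for the normals. All 6 measured epithelial markers lay above any shared lowest value in every normal, and so did all 7 measured smooth muscle markers. The mean of the smooth muscle markers ranged from 4.92 to 6.97 in the normals and from -1.03 to 3.69 in the tumors. The mean of the epithelial markers ranged from -2.81 to -1.51 in the normals and from -0.38 to 0.82 in the tumors. Neither range overlapped between the groups. In addition, between 1.54% and 2.33% of tested genes were at a shared lowest value in a normal, against 12.7% to 30.9% in a tumor. The tumors labelled 7 and 7_733858 were the most alike of 406 tumor pairs over all tested genes (Pearson r = 0.58 after subtracting the tumor mean of each gene, next pair 0.36), although the study's methods give 1 tumor per dog. Several results over the tumors are given with and without both.

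Mammalian cells build cholesterol from acetyl-CoA through mevalonate and the isoprenoids to squalene, which is closed into a ring and trimmed to cholesterol in the endoplasmic reticulum. When membrane sterol is low, the transcription factor SREBP2, encoded by SREBF2, is carried by SCAP to the Golgi, cleaved there and moved to the nucleus, where it activates nearly all genes of the pathway. INSIG proteins hold SCAP and SREBP2 in the endoplasmic reticulum when sterol is plentiful, and INSIG1 is itself an SREBP target.

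Cholesterol synthesis genes were higher in the tumors than in normal mucosa. Of the 7 genes, 6 rose in the tumors (limma with Benjamini-Hochberg adjustment, called at an adjusted p up to 0.05 where the change reached 2-fold), none was called lower, and INSIG1 did not pass. Among all 24471 tested genes 10.7% were called higher and 45.8% lower. On the log2 scale the median change was 1.87 over the 7 genes and -0.84 over all tested genes. The latter was -0.01 over the 18418 genes whose median lay above the lowest value.

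HMGCS1 encodes the cytosolic HMG-CoA synthase, which acts at the entry of the pathway. Its log2 values in normals A, B, C and D were -1.03, -1.0, -0.89 and -1.88, and the tumors ran from -1.06 through a median of 0.33 to 1.16. All but 2 tumors lay above every normal, and none lay below every normal. The difference was 1.36 ± 0.30 (SE) on the log2 scale, or 2.56-fold (adjusted p = 0.000159, limma, 4 normals and 29 tumors), with an exact two-sided permutation p of 0.000196.

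IDI1, the isomerase that turns isopentenyl diphosphate into dimethylallyl diphosphate, separated the groups completely. Its log2 values in normals A to D were -1.93, -2.17, -2.31 and -2.98, and those in the tumors ran from -1.68 through a median of 0.26 to 1.68. The lowest tumor thus lay above the highest normal. IDI1 rose by 2.45 ± 0.41 (SE) on the log2 scale, or 5.45-fold (adjusted p = 3.04e-06, limma).

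FDPS, farnesyl diphosphate synthase, makes the last isoprenoid shared by the sterol branch and protein prenylation. Its log2 values were -1.45, -1.58, -1.60 and -2.07 in normals A to D, and -1.09, 0.14 and 1.46 at the lowest, median and highest tumor. No tumor overlapped the normals. The rise was 1.87 ± 0.32 (SE) on the log2 scale, or 3.66-fold (adjusted p = 4.22e-06, limma).

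FDFT1, squalene synthase, commits farnesyl diphosphate to sterols. Its log2 values were -0.87, -1.06, -0.75 and -1.28 in normals A to D, with tumors from -1.99 through a median of 0.29 to 1.84. Of the 29 tumors, 26 lay above every normal and 1, tumor 10, lay below every normal. FDFT1 had the smallest change of the 6 genes that were called, 1.15 ± 0.37 (SE) on the log2 scale or 2.22-fold (adjusted p = 0.00701, limma), with an exact two-sided permutation p of 0.00562. In the DESeq-normalized table its change was 0.85, under the 2-fold threshold, and it was not called.

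DHCR7, the reductase that catalyses a last step to cholesterol, had the largest difference of the 7 genes. Its log2 values were -2.43, -3.13, -2.62 and -3.15 in normals A to D, and the tumors ran from -2.36 through a median of 0.23 to 2.05. The lowest tumor was only just above the highest normal. The rise was 2.86 ± 0.45 (SE) on the log2 scale, or 7.28-fold (adjusted p = 1.21e-06, limma). DHCR7 was also the most variable of the 7 genes over the tumors, with an SD of 0.91.

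SREBF2, the regulator of the pathway, had log2 values of -1.82, -1.73, -1.95 and -2.50 in normals A to D, against tumors from -1.48 through a median of 0.21 to 0.90. All tumors lay above all normals, and the rise was 2.05 ± 0.28 (SE) on the log2 scale, or 4.16-fold (adjusted p = 7.71e-08, limma). For IDI1, FDPS, DHCR7 and SREBF2 the exact two-sided permutation p was 2.44e-05, the smallest that the 40920 assignments of 4 normals among 33 samples can give. How many of all tested genes separated the groups completely was not counted, so this separation is not shown to be particular to these genes. SREBF2 varied least over the tumors, with an SD of 0.54.

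INSIG1 had log2 values of -0.21, -0.31, 0.01 and -0.84 in normals A to D, and tumors from -1.24 through a median of 0.09 to 1.65. The groups overlapped, with 15 tumors above every normal and 2 below every normal. Its difference was 0.39 ± 0.36 (SE) on the log2 scale (adjusted p = 0.323, limma; exact two-sided permutation p = 0.285). Whether the change of INSIG1 differed from that of the other genes was not tested.

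**Figure D1:**
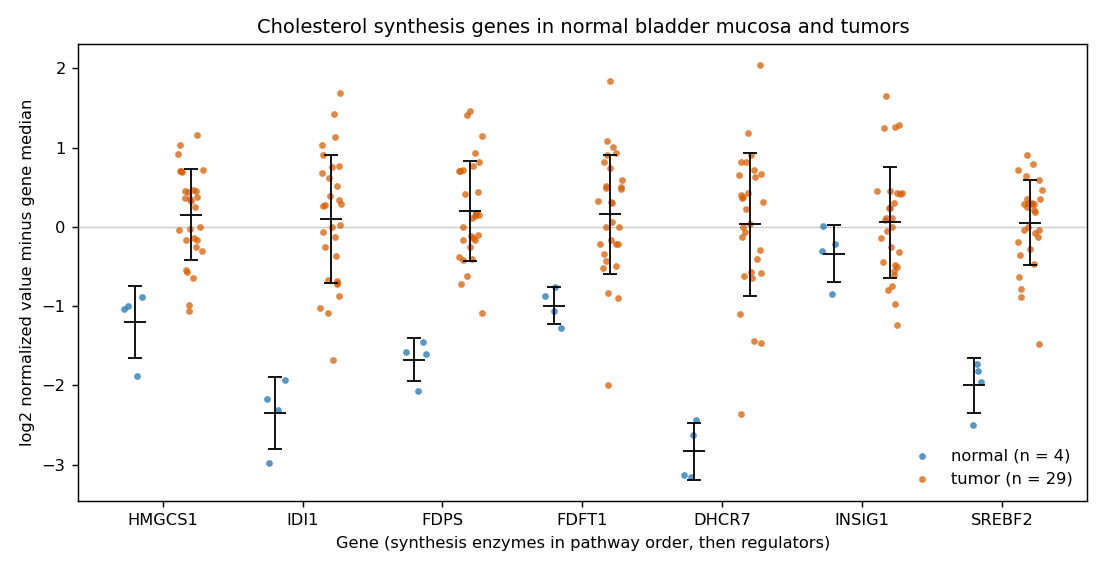
Log2 normalized value minus the gene median (vertical axis) of 7 cholesterol synthesis genes (horizontal axis) in 4 normal samples (blue) and 29 tumors (orange). Points are samples, and black bars give the mean ± SD of a group. Normals and tumors do not overlap in IDI1, FDPS, DHCR7 and SREBF2, and they overlap in INSIG1.

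Other genes of the pathway were read from the same comparison. Of the 16 genes for synthesis steps reported here, 12 were called higher and none lower, against the 10.7% and 45.8% of all genes given above. Without the 5 enzymes already described, it was 7 of 11, with a median log2 fold change of 1.45. Of the 8 mevalonate and isoprenoid genes 4 were called higher, and of the 8 sterol genes all 8. Of these, 6 were called in the DESeq-normalized table, FDFT1 and SC5D not being called. LSS, MSMO1, NSDHL and HSD17B7 were not analysed here.

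SQLE, the squalene epoxidase and a rate-limiting enzyme of the sterol branch, rose by 2.57 ± 0.50 (SE) on the log2 scale, or 5.93-fold, and all 29 tumors lay above every normal. CYP51A1, the lanosterol demethylase, rose by 1.74 ± 0.34 (SE), with 28 of 29 tumors above every normal. Further steps changed in the same direction. ACAT2, the cytosolic thiolase that joins acetyl-CoA units, rose by 1.45 ± 0.24 (SE) on the log2 scale. EBP, a sterol isomerase, rose by 1.71 ± 0.23, LBR and TM7SF2, which both carry sterol reductase activity, by 1.76 ± 0.30 and 2.78 ± 0.53. The mevalonate genes that were not called were MVK, MVD, PMVK and GGPS1. MVK and MVD passed the adjustment but not the fold threshold, with log2 differences of 0.86 ± 0.19 (SE, adjusted p = 0.000129, limma) and 0.75 ± 0.25 (adjusted p = 0.00802, limma), and 28 and 26 of 29 tumors lay above every normal. GGPS1, which makes the geranylgeranyl group for protein prenylation and lies off the sterol branch, had a log2 difference of -0.34 ± 0.26 (SE), and PMVK one of -0.05 ± 0.36.

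Outside synthesis the picture was mixed. Of the 8 measured regulators only SREBF1, which encodes the SREBP1 isoforms, and SREBF2 were called higher. SREBF1 rose by 2.39 ± 0.31 (SE) on the log2 scale. The escort SCAP had a difference of 0.54 ± 0.22 and INSIG2 one of 0.06 ± 0.23, and neither was called. Without the fold threshold 5 of the 8 regulators passed as higher, against 22.9% of all genes.

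Of the 6 genes for uptake and sterol transport reported here 4 were called higher, against 10.7% of all genes. STARD3, a late endosomal sterol carrier, rose by 1.98 ± 0.23 (SE) on the log2 scale. The HDL receptor SCARB1 and the lysosomal exporters NPC1 and NPC2 rose by 1.04 ± 0.25, 1.07 ± 0.28 and 1.10 ± 0.27, close to the 2-fold threshold. The count for the uptake genes was 1 in the DESeq-normalized table and 2 without normal D.

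ABCA1, the cholesterol exporter induced by oxysterol through LXR, was the only 1 of 5 measured efflux and storage genes that was called, at 1.35 ± 0.43 (SE) on the log2 scale, against 10.7% of all genes called higher. Fatty acid genes were called in both directions. ACLY, FASN and ACACA, which make cytosolic acetyl-CoA, palmitate and malonyl-CoA, rose by 2.20 ± 0.26, 1.82 ± 0.28 and 1.08 ± 0.19 (SE). By contrast, the fatty acid desaturase FADS2 had a log2 difference of -1.72 ± 0.54 and the lipogenic gene THRSP one of -2.87 ± 0.37, and both were called lower. In THRSP the lowest and the median tumor were both at 0.0, so the size of its difference depends on that lowest value. Of the 8 measured fatty acid genes 3 were thus called higher and 2 lower, against 10.7% and 45.8% of all genes. In the DESeq-normalized table ACACA was at 0.79 and 2 were called higher.

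**Figure D2:**
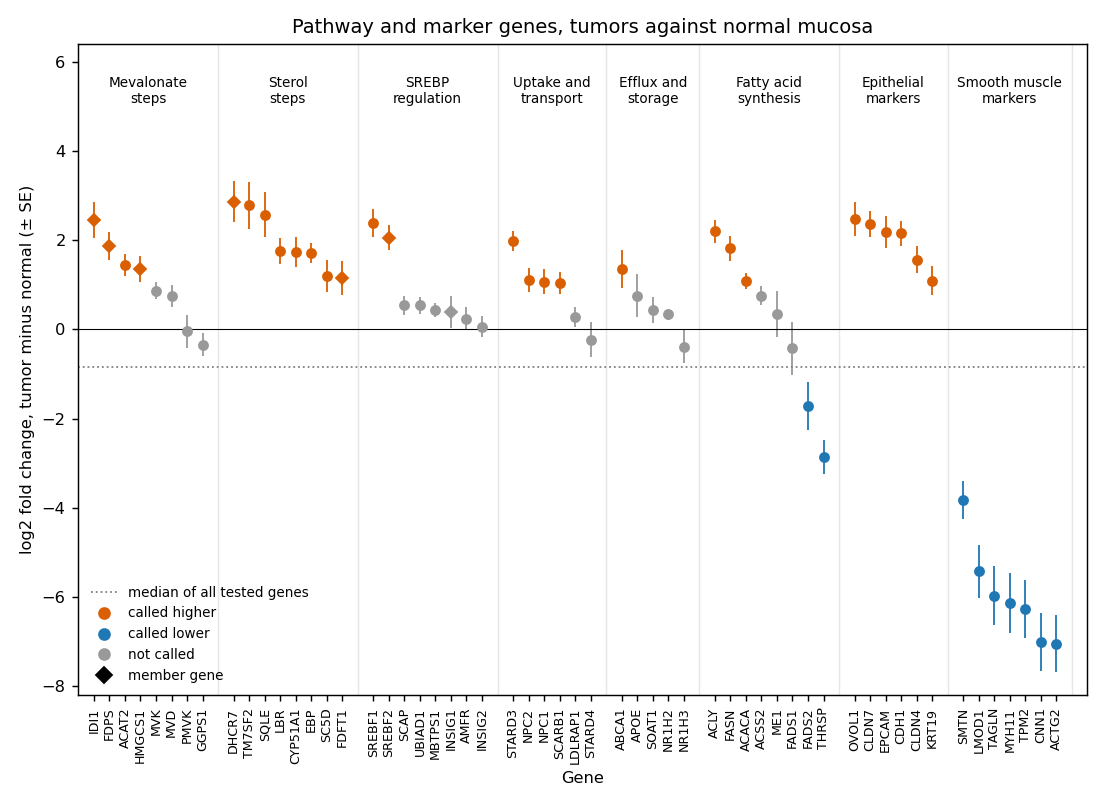
Log2 fold change of tumor minus normal with its SE (vertical axis) for each pathway gene reported and for epithelial and smooth muscle markers (horizontal axis, grouped by list). Orange points were called higher, blue lower and grey not called, diamonds are the 7 genes described, and the dotted line is the median of all tested genes, -0.84. All 8 sterol genes and all 6 epithelial markers lie in orange, and all 7 smooth muscle markers in blue.

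Markers of other cell types were read from the same comparison, against 10.7% of all genes called higher and 45.8% lower. The 6 epithelial markers were all called higher in the tumors (median log2 fold change 2.16), the 7 smooth muscle markers were all called lower (-6.13), and of 8 fibroblast markers 6 were called lower and 1 higher (-2.51). Of 9 mitosis genes 8 were called higher (2.59), and of 9 luminal genes 5 were called higher and 1 lower (1.13). Of 6 adipocyte markers 3 were called lower (-1.23), of 9 T cell markers 1 was called lower (-0.62), of 7 macrophage markers 1 was called higher (0.68), and of 5 squamous genes 1 was called lower (0.04). None of 6 endothelial markers was called by limma (-0.09). Of 6 hypoxia genes 4 were called higher and 1 lower (1.72). Of these lists, the medians of the hypoxia genes, 1.72, and of the epithelial markers, 2.16, lay nearest to that of the 7 cholesterol synthesis genes, 1.87.

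The samples were also compared after centring each sample on the mean of its 6 epithelial markers, an alternative chosen after the data were seen. None of the 7 cholesterol synthesis genes was then called higher (limma, 0 at an unadjusted p of at most 0.05, against 3 lower). The log2 differences became 0.89 ± 0.49 (SE) for DHCR7, 0.48 ± 0.39 for IDI1, 0.08 ± 0.28 for SREBF2, -0.10 ± 0.35 for FDPS, -0.62 ± 0.30 for HMGCS1 and -0.82 ± 0.36 for FDFT1, whose adjusted p was 0.0299 (limma) at a change under 2-fold. INSIG1 was called lower, at -1.58 ± 0.37 (adjusted p = 0.000218, limma). On this scale 0.217% of all genes were called higher and 86.8% lower, and the median of all tested genes was shifted by -1.97. The 6 calls thus held on the scale of the TMM-normalized table and not on that of the epithelial markers. In bulk samples, fewer cells of a type and less RNA per cell cannot be told apart, and the tissue makeup and the disease state cannot be told apart in this comparison of groups.

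The tumors alone were then compared with each other, where the normals play no part. All 21 pairs of the 7 cholesterol synthesis genes had a positive Pearson r and a positive Spearman rho over the 29 tumors, and 2 pairs passed a test over all genes. The r ranged from 0.19 to 0.75 with a median of 0.49, and without tumors 7 and 7_733858 from 0.18 to 0.74 with a median of 0.49. The unadjusted permutation p of r (two-sided, 100000 resamples) was at most 0.05 in 17 of 21 pairs. Of 24088 genes, from 564 (HMGCS1) to 1330 (IDI1) had a positive association with 1 of the 7 at that level by limma. The pair correlations are over samples that share normalization, and any measure shared by whole libraries enters every pair.

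Each gene was also used as the covariate of a limma fit over all genes, with Benjamini-Hochberg adjustment over 24088 genes. Of all genes, 0.083% were positively called with IDI1, 0.0955% with FDPS, 0.0083% with FDFT1 and 0.00415% with INSIG1. With HMGCS1, DHCR7 and SREBF2 it was 0% by limma, against 564, 581 and 925 genes at an unadjusted p of at most 0.05. The threshold was thus passed by few genes of any kind. Of the 21 pairs, 2 passed in both of their fits and 3 in at least 1.

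IDI1 and FDFT1, enzymes on either side of farnesyl diphosphate, were the closest pair. Over 29 tumors r was 0.755 (permutation p = 1e-05, the smallest that the resamples can give) and rho was 0.842, with adjusted p of 0.0108 and 0.0308 in the limma fits on IDI1 and on FDFT1. Without the 2 tumors farthest from the median of IDI1 r was 0.759, and without tumors 7 and 7_733858 it was 0.741. Without both, however, the pair passed in only 1 of its fits, the larger adjusted p being 0.0906 (limma). The lowest tumor in FDFT1, tumor 10 at -1.99, was not the lowest in IDI1, where it was at -0.71.

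INSIG1 and FDPS followed. Their r was 0.749 (permutation p = 2e-05) and rho was 0.667, with adjusted p of 0.0495 on INSIG1 and 0.0156 on FDPS (limma). Tumor 7 had 1.29 in INSIG1 and 1.14 in FDPS, and tumor 7_733858 had 1.65 and 1.46, at or near the top of both genes. Without both tumors r was 0.658, and neither fit passed. Without the 2 tumors farthest in INSIG1 r was 0.667, and without the 2 farthest in FDPS it was 0.644. INSIG1 and IDI1 had an r of 0.726 (permutation p = 2e-05, rho 0.72, and 0.736 without both tumors), and passed in the fit on IDI1 alone (adjusted p = 0.0227 against 0.0531 on INSIG1, limma).

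HMGCS1 and DHCR7 were the next pair outside these (r = 0.594, permutation p = 0.00067, rho 0.567), followed by IDI1 and SREBF2 (r = 0.591, permutation p = 0.00073, rho 0.534). Neither passed the adjustment over all genes (adjusted p of 0.657 and 0.522, and of 0.107 and 0.151, limma). The mean r of SREBF2, the regulator, to the other 6 genes was 0.41, against 0.60 for IDI1, 0.55 for FDPS, 0.52 for INSIG1, 0.49 for FDFT1, 0.45 for DHCR7 and 0.40 for HMGCS1. These values overlap widely over the pairs and their order was not tested.

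The remaining 4 pairs did not reach an unadjusted permutation p of 0.05. They were HMGCS1 with FDFT1 (r = 0.19, permutation p = 0.327), DHCR7 with SREBF2 (r = 0.22, permutation p = 0.257), INSIG1 with SREBF2 (r = 0.35, permutation p = 0.0651) and HMGCS1 with INSIG1 (r = 0.34, permutation p = 0.0735). The order of the low pairs rested on a few tumors. HMGCS1 with FDFT1 had an r of 0.36 without the 2 tumors farthest in FDFT1, and FDFT1 with DHCR7 went from 0.42 to 0.17 without the 2 farthest in DHCR7.

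**Figure D3:**
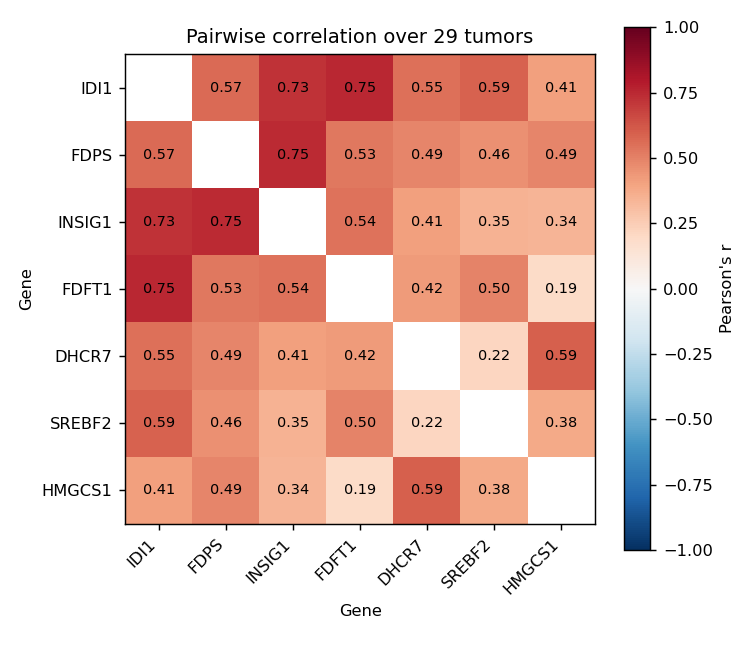
Pearson's r over 29 tumors for each pair of the 7 genes, which are ordered on both axes by their mean r to the others, with colour from blue (-1) to red (1). All 21 values are positive, from 0.19 for HMGCS1 with FDFT1 to 0.75 for IDI1 with FDFT1.

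**Figure D4:**
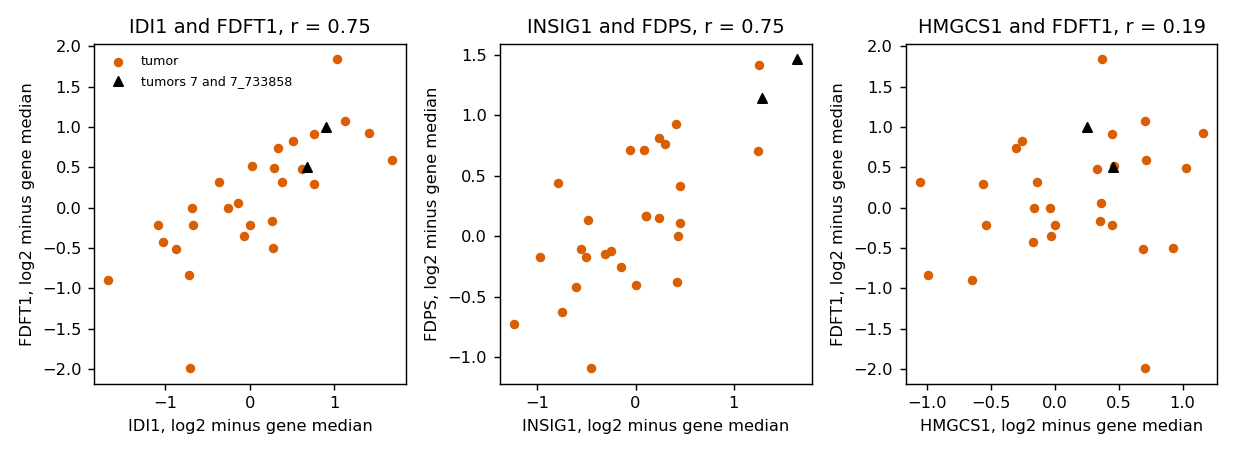
Log2 normalized value minus the gene median of one gene against another over 29 tumors (points), with tumors 7 and 7_733858 as black triangles. IDI1 and FDFT1 rise together along most of the range, INSIG1 and FDPS have both triangles at their upper end, and HMGCS1 and FDFT1 show little relation.

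Some tumors were high or low in all of the genes, and others were mixed. Tumors Mis, 18 and 7 lay above the tumor median in 7 of 7 genes, and 4 further tumors in 6 of 7. Among these 4 was tumor 7_733858, the tumor most alike to tumor 7. In tumor Mis, DHCR7 was at 2.05 and FDFT1 at 1.84, each the highest of all tumors. At the other end, tumors Ja and 20 lay above the tumor median in 0 of 7 genes. Tumor Ja was among the 5 lowest tumors in all 7 genes, with DHCR7 at -2.36 and IDI1 at -1.68, each the lowest of all tumors. Tumor 20 was among the 5 lowest in 5 of 7 genes. Between these, 5 tumors lay above the median in 1 gene, 5 in 2, 3 in 3, 6 in 4 and 1 in 5. The tumors were not split into groups by these values.

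Genes most like the 7 over the tumors were sought among 11386 other named genes that lay above the lowest value in at least 20 of the 29 tumors, ranked by the mean of their r to the 7 genes. SQLE, an enzyme of the same pathway, led the ranking with a mean r of 0.615, against a median of 0.015 over all ranked genes. SC5D, the sterol desaturase, was at rank 3 (0.524) and CYP51A1 at rank 5 (0.508). Thus 3 of the first 10 genes belonged to the 11 other genes for synthesis steps.

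The other 7 of the first 10 genes were CHKA, a choline kinase of phosphatidylcholine synthesis (0.533), GINS4, a subunit of the replicative helicase (0.520), PTPRT, a receptor tyrosine phosphatase (0.508), AKR1E2, an aldo-keto reductase (0.505), NDUFV1, a subunit of mitochondrial complex I (0.501), MCM10, a replication initiation factor (0.501), and RAD9A, of the DNA damage checkpoint (0.500). Without tumors 7 and 7_733858 the mean r of the 10 genes ranged from 0.475 for AKR1E2 to 0.595 for SQLE. The 5 genes with the lowest mean r were JUN, a subunit of the AP-1 transcription factor (-0.521), ANKRD6 (-0.493), CYSLTR2, a leukotriene receptor (-0.481), TOB1, an antiproliferative gene (-0.478), and GPR141 (-0.476).

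Over the whole list, all 11 other genes for synthesis steps had a positive mean r, from 0.076 for GGPS1 to 0.615 for SQLE, with a median of 0.388. Of these, 5 lay above the 99th percentile of all ranked genes, which was at 0.395. The 5 efflux and storage genes had a negative mean r, with SOAT1 at -0.035, APOE at -0.093 and NR1H2 at -0.110. ABCA1 was at -0.434, among the lowest of all ranked genes (percentile 0.228), although it was called higher in the tumors against the normals, and its LXR regulator NR1H3 was at -0.286. Of the 6 uptake and transport genes 2 had a positive mean r, and the median of that list was -0.072. Of the 8 fatty acid genes 7 had a positive mean r, with ACLY at 0.323, ACACA at 0.205 and FASN at 0.157. SREBF1 was at 0.043, close to the median of all ranked genes. No test was run on the ranking, which describes these tumors.

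Finally, the 7 genes were set against 9 marker and programme scores and the share of genes at the lowest value, over the 29 tumors. Of the 70 relations, 12 had an unadjusted permutation p of at most 0.05, and 1 passed the limma fit over all genes. The share of all genes at that unadjusted level was not counted, so the 12 cannot be set against it. FDPS was positively related to the mitosis score (r = 0.611, permutation p = 0.00039, rho 0.611, adjusted p = 0.0278, limma), where 1.68% of all genes were called. When the 2 tumors with the most extreme mitosis scores were left out, r was 0.487, where the fit no longer passed, and 0.699 without tumors 7 and 7_733858.

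The mitosis score had a positive r with all 7 genes, from 0.15 for HMGCS1 to 0.61 for FDPS. Without the 2 tumors farthest in the score that of HMGCS1 was 0.01, and that of DHCR7 went from 0.17 to 0.24. SREBF2 (0.53), IDI1 (0.50) and INSIG1 (0.47) did not pass the adjustment, with adjusted p of 0.0913, 0.116 and 0.16 (limma). Without the 2 tumors farthest in the score their r fell to 0.31, 0.39 and 0.21, and the rho of SREBF2 over all tumors was 0.30. With the mitosis score as a covariate, all 42 coefficients between the 7 genes remained positive and 30 had an unadjusted p of at most 0.05, but none passed the adjustment over all genes (limma).

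The luminal score, where 2.18% of all genes were called, had an r from 0.03 for DHCR7, where rho was -0.06, to that of SREBF2 (r = 0.49, permutation p = 0.00785, adjusted p = 0.115, limma), with IDI1 at 0.45. The squamous score, with 1.2% of all genes called, ran from -0.03 for DHCR7 to that of SREBF2 (r = -0.57, permutation p = 0.00132, adjusted p = 0.0634, limma). Without tumors 7 and 7_733858 the luminal r of INSIG1 was 0.42, against 0.26 with them. None of these passed. The T cell score (2.73% of all genes called) was negative with all 7 genes, from -0.11 for HMGCS1 to -0.42 for SREBF2, and the macrophage score (2.3% called) from -0.12 for FDFT1 to -0.37 for FDPS. Without the 2 tumors farthest in the macrophage score, SREBF2 went from -0.31 to -0.51 and HMGCS1 from -0.15 to -0.46. None of the 14 relations to these immune scores passed.

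The mean value of the epithelial markers separated normals from tumors, whereas the epithelial score is defined over the tumors alone. The epithelial score (1.64% of all genes called) had an r from -0.06 for DHCR7 to 0.37 for FDFT1 and passed for none. Without tumors 7 and 7_733858 it ranged from -0.01 to 0.44 for the same genes, and that of INSIG1 went from 0.07 to 0.23. With it as a covariate, 5 of the 42 fits between the 7 genes passed, as many as without it, but IDI1 with FDFT1 no longer passed in both of its fits (limma). The smooth muscle score (1.45% called) had r from -0.13 to 0.22 over the 29 tumors. Without tumors 7 and 7_733858 it was negative with all 7 genes, from -0.08 for SREBF2 to -0.46 for FDPS and INSIG1. The smallest adjusted p was then 0.203 (FDPS, limma). The fibroblast score (2.71%) had r from -0.07 to 0.15, and from -0.21 to 0.12 without both tumors. The hypoxia score (0.0083%) had r from -0.04 to 0.30, and the share of genes at the lowest value (12.5%) from -0.09 to 0.26. None of these relations passed by limma.

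**Figure D5:**
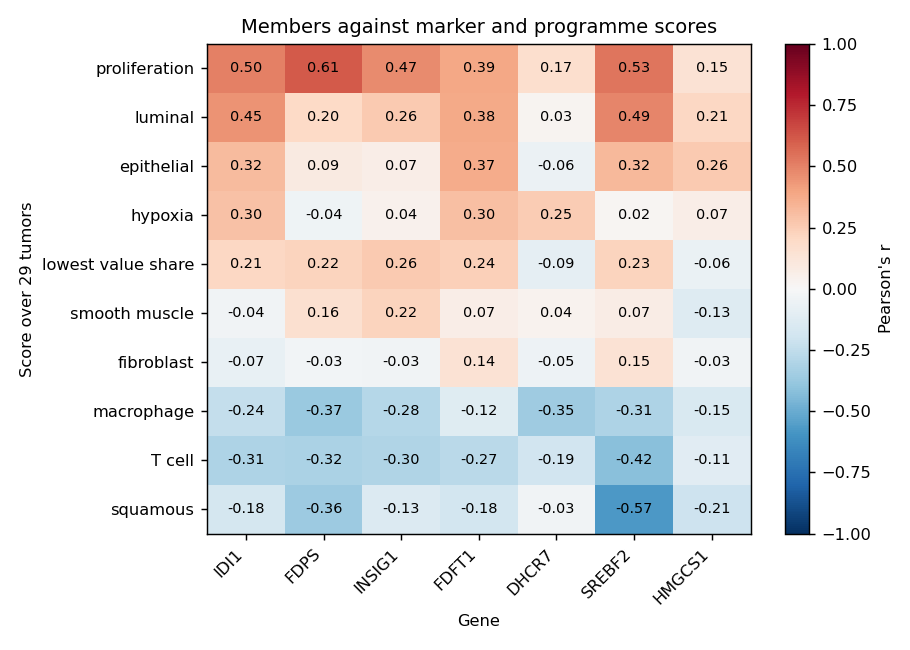
Pearson's r over 29 tumors between each of the 7 genes (horizontal axis) and 9 marker or programme scores and the share of genes at the lowest value (vertical axis), with colour from blue (-1) to red (1). The mitosis (proliferation) row is positive for all 7 genes, the luminal row runs from 0.03 to 0.49, and the squamous, T cell and macrophage rows are negative for all 7.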

How the data were processed

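RNA from 29 canine iUC tumors and 4 normal mucosa samples was sequenced by the study as paired-end reads after removal of ribosomal RNA. The authors aligned the reads to CanFam 3.1 with COBWeb in Strand NGS, normalized the annotated genes once with TMM and once with DESeq, and deposited both tables as log2 values centred on the median of the gene. How reads that match several places, such as processed pseudogenes, were assigned is not given in the sources used here. The tables hold no counts, so no count test was run, sample depth is unknown, and the log2 values were used as they are. The last line of each table was cut off and left out.

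Symbols came from the TMM table and, for genes without one, by Entrez ID from a RefSeq gene table (assembly UU_Cfam_GSD_1.0), used for names only. Genes above a shared lowest value in at least 4 samples, or without one, were tested (24471 of 25096). Tumors and normals, and the tumors against each gene or score, were fitted with limma 3.58.1 in R 4.3.3 (mean-variance trend, Benjamini-Hochberg adjustment). Scores are the mean z over the tumors of the measured genes of a list without the 7 genes. Permutation tests were exact or used 100000 resamples (Python 3.11.15, scipy 1.17.1). The fits were tested on simulated data. Nothing beyond the labels says how separate the samples of a group are, other than 1 tumor per dog.

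The 7 genes and all lists were chosen with earlier results of these data known. Genes named besides the 7 are, in each pathway list, at most 5 called genes of smallest adjusted p, with SQLE always, and the 10 genes most like and 5 least like the 7. SCAP, INSIG2, GGPS1, PMVK, MVK, MVD, NR1H3, NR1H2, APOE and SOAT1 were named after their values were seen. For some genes of the lists results are not reported here, and counts and ranks leave them out. Alternatives were the authors' DESeq-normalized table, other variance models, filters, fold threshold and scaling, ranks, covariates, each normal or the 2 farthest tumors left out and, chosen after the data were seen, centring on epithelial markers and leaving out or averaging tumors 7 and 7_733858. A planned search for promoter motifs was not run, since no promoter sequences were used here.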

Additional observations from a re-analysis of the deposited data

Results flagged for a closer look

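Among the 24 named genes tested for a sample apart from the other normals, 2 had normal D apart from A, B and C. HMGCS1 was at -1.88 in normal D against -1.03 to -0.89 in the others, on the log2 scale of the report. THRSP was at 4.45 in normal D against 2.82 to 3.07. Normal D was also the lowest normal in every one of the cholesterol synthesis genes. The gap was wide in IDI1 (-2.98, next -2.31 in normal C) and narrow in DHCR7 (-3.15, next -3.13 in normal B). Chance gives such a gap in about 1 in 20 groups, and the genes of a sample are not independent. Without normal D, HMGCS1 was still called higher in the tumors, with a log2 difference of 1.13.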

How the results depend on the processing

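Of the 7 genes, 6 were called higher under each alternative other than the DESeq-normalized table, where FDFT1 was lost, and centring on epithelial markers, and with each normal left out (range 6 to 6). With each normal left out the uptake genes called higher ranged from 2 (without normal D) to 4, against 1 in the DESeq-normalized table, where 6 sterol and 2 fatty acid genes were called. Without the fold threshold 5 regulation and 2 efflux genes were called higher, against 22.9% of all genes. Centring on epithelial markers, chosen after the data were seen, changed most of all: called higher were 0 of the 7 genes, 0 mevalonate, 0 sterol, 0 regulation, 0 uptake, 0 efflux and 0 fatty acid genes, and the log2 difference turned to -0.62 for HMGCS1, -1.58 for INSIG1, -0.82 for FDFT1, -0.10 for FDPS, -0.53 for ACAT2, -0.26 for EBP, -0.21 for LBR, -0.23 for CYP51A1, -0.93 for SCARB1, -0.87 for NPC2, -0.90 for NPC1, -0.62 for ABCA1, -0.16 for FASN and -0.89 for ACACA. By construction this subtracts the difference of those markers. Pairs that passed in both fits numbered 1 in the DESeq-normalized table, 1 by ranks, 1 without the 2 farthest tumors, 1 with tumors 7 and 7_733858 averaged, and 0 without both, 0 with the share at the lowest value and 0 with the mitosis score as covariate (limma). At an unadjusted p of at most 0.05 these last 3 settings had 30, 36 and 30 of 42 fits. After adjustment 5 of the 42 fits passed in the main setting, 5 with the epithelial score as covariate and 6 with samples centred on expressed genes. All 42 coefficients stayed positive in each setting. The relation of FDPS to the mitosis score left 0 relations passing without the 2 farthest tumors. The cause of these losses was not tested. The precision is limited by the 4 normals, and the depth behind a value is unknown.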
